A study of Mus musculus with 9 samples.

Results

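The genes described here are 34 markers of the principal neurons of the mouse hippocampus, the granule cells of the dentate gyrus and the pyramidal cells of the CA fields. They were taken by symbol, 11 as dentate granule markers (Prox1, C1ql2, C1ql3, Dsp, Calb1, Npnt, Stxbp6, Lct, Trpc6, Plk5 and Rfx3) and 23 as CA markers. The CA markers were divided into 6 for CA1 (Wfs1, Fibcd1, Mpped1, Pou3f1, Man1a and Spink8), 5 for CA2 (Amigo2, Map3k15, Cacng5, Rgs14 and Pcp4) and 12 for CA3 or more than 1 field (Iyd, Neurod6, Nptx1, Zbtb20, Bok, Cpne7, Grp, Coch, Elavl2, Socs2, Homer3 and Nwd2). All 34 were among the 54513 genes of the deposited table, and all 34 passed the filter on low counts that left 18690 genes for testing.

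The study sequenced messenger RNA from tissue labelled hippocampus, 9 libraries from 9 mice. Every group ate a high-fat diet for 12 weeks, so no library here comes from a mouse on a standard diet. The Trp group (n = 3) had 0.5% tryptophan by weight added to that diet, the IPA group (n = 3) was gavaged daily with IPA at 100 mg per kg of body weight in saline, and the HFD group (n = 3) had the diet with neither addition. The sources used here state neither strain, sex, age nor the exact dissection, nor whether the Trp and HFD mice were gavaged with saline.

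Granule cells of the dentate gyrus receive the main cortical input to the hippocampus and send mossy fibres to the pyramidal cells of CA3, which project in turn to CA1. CA2 is a small field between CA3 and CA1 with its own set of genes, several of them regulators of calcium and G-protein signalling. In bulk tissue the transcript level of such a marker depends both on how many of its cells were in the sample and on how much of the transcript each cell held, and fewer cells of a type and less RNA per cell cannot be told apart.

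The libraries differed in depth by little, with total counts between 40621084 (IPA 2) and 50938746 (Trp 1). They differed more in markers of neighbouring brain regions. The summed level of 22 striatal markers, given as CPM (deposited counts scaled to library size), was 2848, 4110 and 3494 in the 3 Trp libraries in order of replicate, 3999, 4187 and 5242 in the IPA libraries, and 2662, 4153 and 1347 in the HFD libraries. None of the 22 was at 0 in any library. HFD 3 stood apart: it had the lowest striatal sum, the highest sum of 12 thalamus and habenula markers (529.5 CPM against 126.8 to 322.7 CPM elsewhere) and the highest sum of 7 blood genes (2213 CPM against 233.6 to 731.8 CPM). The thalamic transcription factor Tcf7l2 reached 68.8 CPM in HFD 3, where the remaining 8 libraries had 7.92 to 25.8 CPM, and Slc6a3, the dopamine transporter, was at 11.1 CPM there and at 0.168 to 0.751 CPM elsewhere.

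Measured per length, as the authors' FPKM values, in which fragments are scaled by the length of the gene and by library size, the markers spanned a wide range and several defining ones were low. The highest mean was that of Pcp4, which encodes a small calmodulin-binding protein, at 944.6 FPKM over the 9 libraries. It had 887.2, 1011 and 1114 FPKM in the Trp libraries, 925.8, 911.1 and 998.2 FPKM in the IPA libraries, and 867.8, 981.5 and 804.7 FPKM in the HFD libraries. Pcp4 is also abundant in the striatum, so its level is not a measure of CA2 alone. Next came Nptx1, a secreted synaptic pentraxin, with a mean of 49.4 FPKM, and Mpped1, with a mean of 45.1 FPKM. Nptx1 had 57.1, 57.2 and 49.5 FPKM in Trp, 39.6, 53.1 and 53.1 FPKM in IPA, and 42.9, 45.6 and 46.5 FPKM in HFD libraries. Mpped1 had 42.4, 43.6 and 51.3 FPKM in Trp, 39.1, 44.7 and 43.0 FPKM in IPA, and 53.1, 51.1 and 37.7 FPKM in HFD libraries. Groups overlapped for Pcp4 and Mpped1, and for Nptx1 on this scale the Trp libraries all lay above the HFD libraries, which they did not in CPM.

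The lowest mean levels were those of Dsp (0.261 FPKM), Map3k15 (0.303 FPKM), Lct (0.404 FPKM) and Iyd (0.439 FPKM). Dsp encodes desmoplakin, a protein of cell junctions that is used as a marker of granule cells, and it had 0.858, 0.0898 and 0.0232 FPKM in Trp, 0.0788, 0.184 and 0.113 FPKM in IPA, and 0.253, 0.0152 and 0.737 FPKM in HFD libraries. Trp 1 and HFD 3 were the highest, HFD 1 and IPA 2 came next, and the groups overlapped. Map3k15 encodes a kinase of the MAP kinase cascade, and it had 0.532, 0.272 and 0.205 FPKM in Trp, 0.288, 0.327 and 0.332 FPKM in IPA, and 0.249, 0.283 and 0.239 FPKM in HFD libraries. Iyd encodes an iodotyrosine deiodinase, and it had 0.646, 0.0675 and 0.417 FPKM in Trp, 0.243, 0.581 and 0.107 FPKM in IPA, and 0.413, 0.159 and 1.32 FPKM in HFD libraries. Its counts were between 5 and 92, so its levels carry a large counting error. Over all tested genes the median of the mean level was 3.87 FPKM.

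The tissue label was set against these markers and those of other regions. Prox1, the transcription factor that defines granule cells, was present in every library but only at 1.24 to 4.67 FPKM, and C1ql2, a synaptic protein of mossy fibres, was at 0.959 to 6.76 FPKM. The subset medians of the mean level were 3.13 FPKM for the 11 dentate markers, 6.06 FPKM for the 6 CA1 markers, 4.04 FPKM for the 5 CA2 markers and 7.60 FPKM for the 12 others. Genes of other regions were present as well, over a wide range: Ppp1r1b, named after its values were seen, the DARPP-32 phosphoprotein of spiny neurons, was at 89.8 to 413.3 FPKM, and the dopamine receptor Drd1 at 5.03 to 26.1 FPKM. Tbr1, a transcription factor of cortical neurons, was at 15.9 to 26.9 FPKM, and Ttr, a product of the choroid plexus, at 20.8 to 984.2 FPKM. Other striatal markers were low, such as Isl1 at a mean of 2.14 FPKM and Ido1 at 3.78 FPKM, also named after their values were seen. Markers of striatum, cortex and choroid plexus were thus present beside the dentate and CA markers in all 9 libraries, and the libraries are called by their group names here and not by a region.

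**Figure D1:**
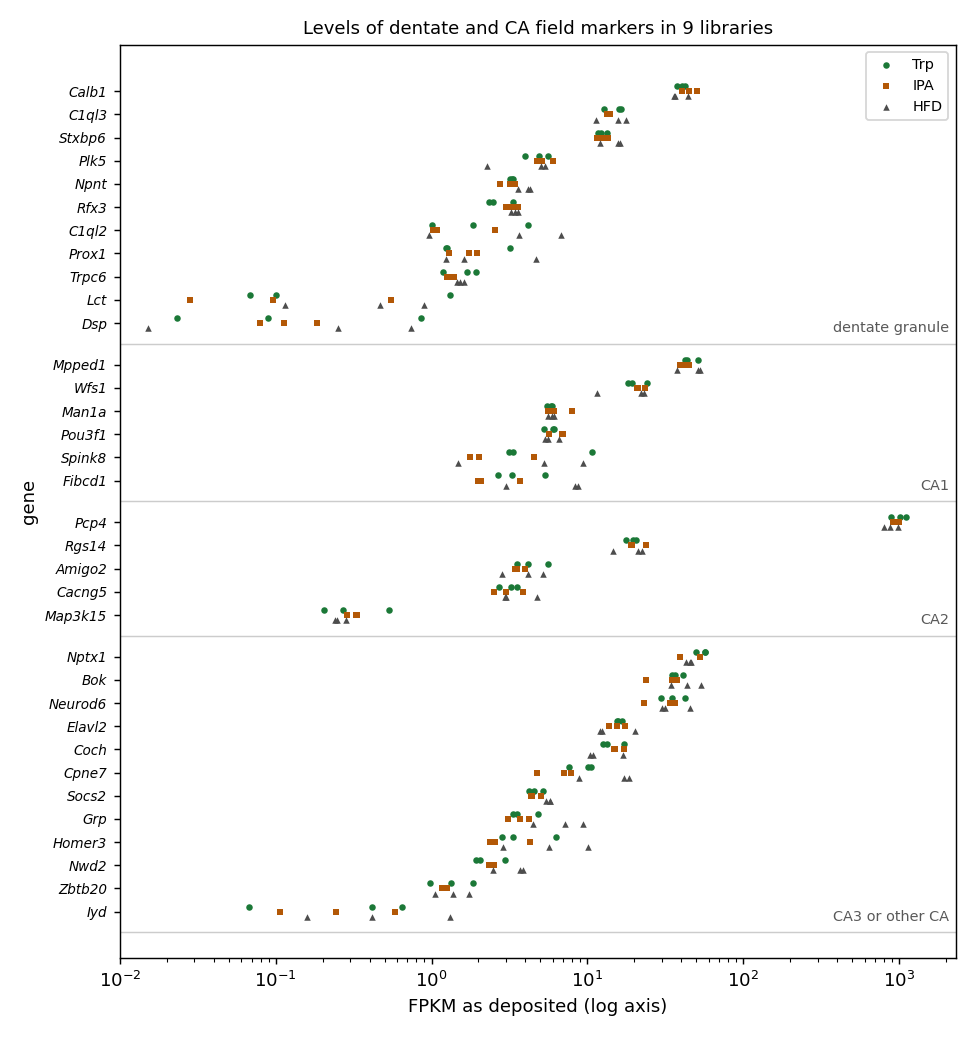
Level of each of the 34 markers in deposited FPKM on a log axis, in rows by dentate, CA1, CA2 and CA3 or other CA, with each Trp, IPA and HFD library shown as a point. Pcp4 lies far above the rest at a mean of 944.6 FPKM, and Dsp, Map3k15, Lct and Iyd lie below 1 FPKM on average.

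The markers varied between libraries to very different degrees. The highest library was over 4 times the lowest in 9 of the 34 markers (26.5%), against 10.7% of all tested genes. Among genes with a mean of at least 1 FPKM it was 6 of 30 markers (20%), against 1.60% of all such genes. The 9 were Dsp, Lct, Iyd, C1ql2, Spink8, Fibcd1, Cpne7, Prox1 and Homer3, that is 4 of 11 dentate, 2 of 6 CA1, 0 of 5 CA2 and 3 of 12 other markers. The threshold of 4 was chosen after the values were seen, as were C1ql2, Fibcd1, Prox1, Homer3, Wfs1, Rgs14 and Socs2 as genes to describe by library. Homer3, just above it, had a ratio of 4.10, and Grp, just below it, a ratio of 3.21. By contrast 19 of the 34 had a ratio under 2, with Pcp4 the flattest at 1.26. The median ratio over all 18690 tested genes was 1.54, so a ratio under 2 was common among all genes and does not set the markers apart.

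To set 3 of the variable markers (Prox1, Lct and Iyd) beside the flattest one (Pcp4), the promoters of those 4 genes are shown, each running 300 bases from 250 before the transcription start to 50 after it, 5′ to 3′ on the gene's strand (RefSeq, GRCm38.p6). Capitals mark any match to the E-box bound by NeuroD-type factors (CAGATG, or CATCTG on the other strand) and to the TATA box (TATAAA, or TTTATA on the other strand). Prox1 is at chr1:190170778-190171077 (minus strand), Lct at chr1:128328269-128328568 (minus strand), Iyd at chr10:3540024-3540323 (plus strand) and Pcp4 at chr16:96467356-96467655 (plus strand).
Prox1: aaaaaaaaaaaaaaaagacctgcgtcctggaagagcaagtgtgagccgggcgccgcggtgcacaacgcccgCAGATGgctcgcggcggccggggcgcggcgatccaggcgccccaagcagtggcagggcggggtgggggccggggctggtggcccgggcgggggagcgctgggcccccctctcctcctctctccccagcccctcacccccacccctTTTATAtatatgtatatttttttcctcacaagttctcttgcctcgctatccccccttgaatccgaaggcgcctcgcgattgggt
Lct: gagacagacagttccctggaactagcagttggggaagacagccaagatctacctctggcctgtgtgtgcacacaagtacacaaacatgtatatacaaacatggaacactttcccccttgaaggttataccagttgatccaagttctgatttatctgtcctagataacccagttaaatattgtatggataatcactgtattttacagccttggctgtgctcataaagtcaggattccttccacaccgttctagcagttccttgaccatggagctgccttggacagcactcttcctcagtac
Iyd: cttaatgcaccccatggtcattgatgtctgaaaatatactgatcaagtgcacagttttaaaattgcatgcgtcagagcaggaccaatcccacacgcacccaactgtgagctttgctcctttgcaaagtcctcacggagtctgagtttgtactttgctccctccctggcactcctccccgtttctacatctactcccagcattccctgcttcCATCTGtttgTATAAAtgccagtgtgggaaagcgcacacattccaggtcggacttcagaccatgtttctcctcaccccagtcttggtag
Pcp4: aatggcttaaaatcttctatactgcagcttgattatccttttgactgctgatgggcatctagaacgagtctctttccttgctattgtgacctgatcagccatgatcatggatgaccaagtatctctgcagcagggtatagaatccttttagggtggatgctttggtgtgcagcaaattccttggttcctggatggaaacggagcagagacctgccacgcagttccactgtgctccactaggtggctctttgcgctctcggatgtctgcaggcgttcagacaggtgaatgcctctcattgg

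Of the 34 markers 25 had a promoter in the RefSeq table. The E-box letters occurred in 4 of the 25 (16%; Prox1, Wfs1, Nwd2 and Iyd), against 17.2% of all 27025 promoters, and the TATA box letters in 3 of the 25 (12%; Prox1, Iyd and Coch), against 14.2%. The 2 motifs share no overlapping match in the printed stretches. The median GC content was 66.3% over the 25 and 52.7% over all promoters. In Prox1 and Iyd both motifs were present, and the highly variable Lct and the flat Pcp4 held neither. Dsp, C1ql2, Fibcd1 and Homer3, variable markers whose promoters are not printed, also held neither motif, so the motifs did not separate variable from flat markers.

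In the dentate set, the variable markers were all among their highest in HFD 3 and Trp 1. Prox1 had 27.9, 10.3 and 10.3 CPM in the Trp libraries, 15.9, 17.1 and 11.6 CPM in the IPA libraries, and 14.2, 10.9 and 42.3 CPM in the HFD libraries. HFD 3 and Trp 1 were high, and each group overlapped the others. Exons of Prox1 overlap those of its antisense gene Prox1os, which had 34 to 97 counts. Without strand, reads from the shared stretch cannot be told apart, and the length of such overlaps was not measured. C1ql2 had 9.18, 3.85 and 2.12 CPM in Trp, 2.40, 5.67 and 2.48 CPM in IPA, and 8.18, 2.14 and 15.5 CPM in HFD libraries. Dsp had 8.40, 0.910 and 0.242 CPM in Trp, 0.826, 1.95 and 1.06 CPM in IPA, and 2.72, 0.182 and 7.58 CPM in HFD libraries. For Dsp the ratio of highest to lowest library was 46.2 over all libraries and 34.7 within Trp, 2.36 within IPA and 41.7 within HFD. Lct, the lactase gene, had 8.96, 0.431 and 0.665 CPM in Trp, 0.225, 3.72 and 0.685 CPM in IPA, and 3.23, 0.787 and 6.29 CPM in HFD libraries. Its ratio was 39.8 over all libraries, with Trp 1 and IPA 2 far above the rest of their groups and HFD 1 and HFD 3 above HFD 2.

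The variable CA markers were also among their highest in HFD 3 and Trp 1, but not in 1 fixed order of libraries. Fibcd1, a CA1 marker that encodes a membrane receptor for acetylated sugars, had 28.2, 13.3 and 16.2 CPM in Trp, 11.4, 19.5 and 10.7 CPM in IPA, and 44.2, 15.9 and 47.3 CPM in HFD libraries. Spink8, a CA1 marker and a predicted serine protease inhibitor, had 8.26, 2.56 and 2.26 CPM in Trp, 1.70, 3.62 and 1.44 CPM in IPA, and 4.13, 1.17 and 7.48 CPM in HFD libraries. Homer3, a scaffold protein of the postsynaptic density, had 16.2, 7.59 and 6.53 CPM in Trp, 6.76, 11.02 and 6.19 CPM in IPA, and 14.4, 7.47 and 25.4 CPM in HFD libraries. In each of these genes 1 library stood above its group in Trp (replicate 1) and in IPA (replicate 2), and HFD 2 was the low HFD library. Exons of Homer3 overlap those of Ddx49 on the other strand, which had 1059 to 1416 counts, so reads from that shared stretch are not separable either. Iyd had 1.07, 0.120 and 0.403 CPM in Trp, 0.450, 0.740 and 0.213 CPM in IPA, and 0.728, 0.242 and 2.19 CPM in HFD libraries. Over the 9 variable markers, HFD 3 and Trp 1 were both among the 3 highest libraries in 9 of 9, and HFD 1 and IPA 2 were each among the 4 highest in 8 of 9. HFD 3 was the highest library in 6 of the 9 and Trp 1 in 3.

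**Figure D2:**
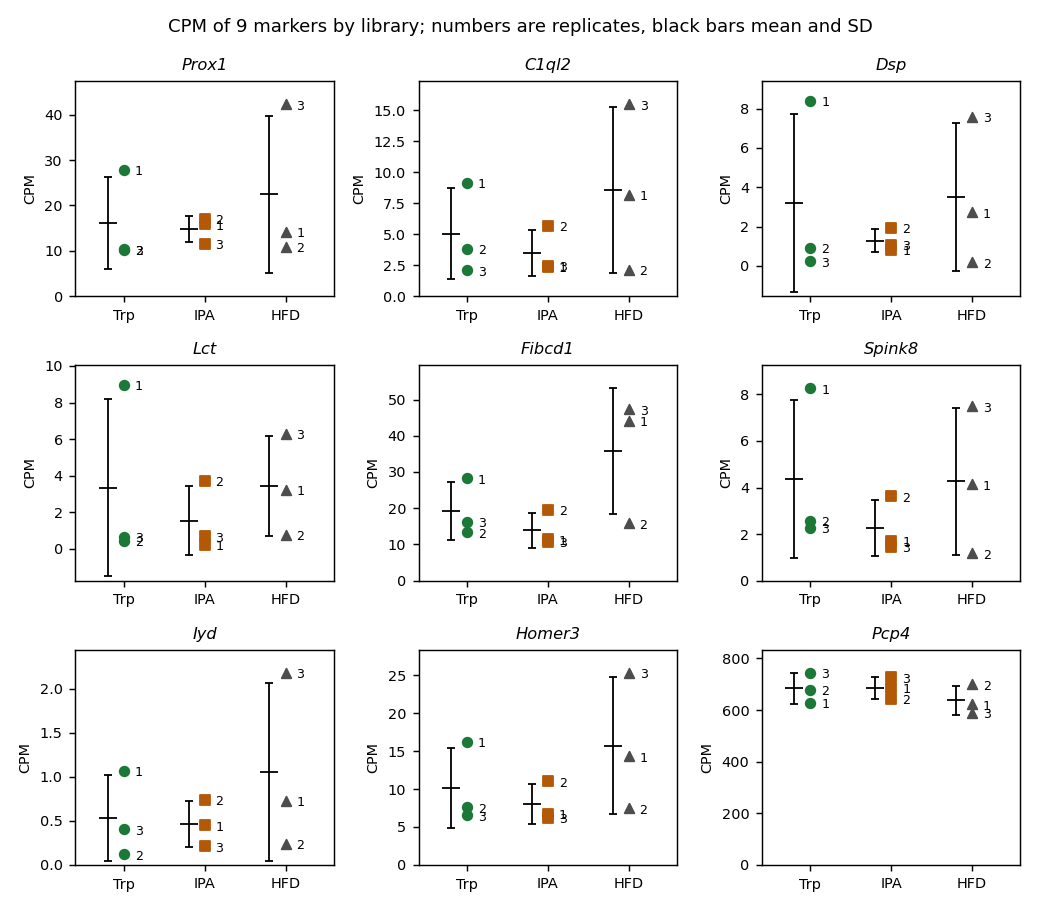
CPM of 8 of the 9 most variable markers and of Pcp4 in each Trp, IPA and HFD library, with points numbered by replicate and bars for the mean and SD of 3 libraries on linear axes. HFD 3 and Trp 1 lie above the low libraries for the 8 variable markers, while Pcp4 keeps within 590.6 to 745.2 CPM.

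Markers of neighbouring regions differed among the libraries at the top for these markers. Trp 1, HFD 1 and HFD 3 had the 3 lowest striatal sums, at 2848, 2662 and 1347 CPM, whereas IPA 2 had a striatal sum of 4187 CPM. Trp 1 and HFD 3 had the highest thalamus and habenula sums, at 322.7 and 529.5 CPM, against 232.8 CPM in HFD 1 and 218.3 CPM in IPA 2. The choroid plexus sum was 1469 CPM in Trp 1 and 1227 CPM in IPA 2, with 732.7 CPM in HFD 3 and 39.9 CPM in Trp 3. The part of these regions in the marker levels was not tested. Over all 34 markers HFD 3 was the highest library in 11 and the lowest in 7, and for Wfs1, Rgs14 and Plk5 it was the lowest. Wfs1, an endoplasmic reticulum protein and a CA1 marker, was at 50.3 CPM in HFD 3, the highest library for Fibcd1, and between 71.8 and 98.2 CPM elsewhere. Rgs14, a regulator of G-protein signalling in CA2, was at 39.6 CPM in HFD 3 and 43.4 to 61.1 CPM elsewhere.

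**Figure D3:**
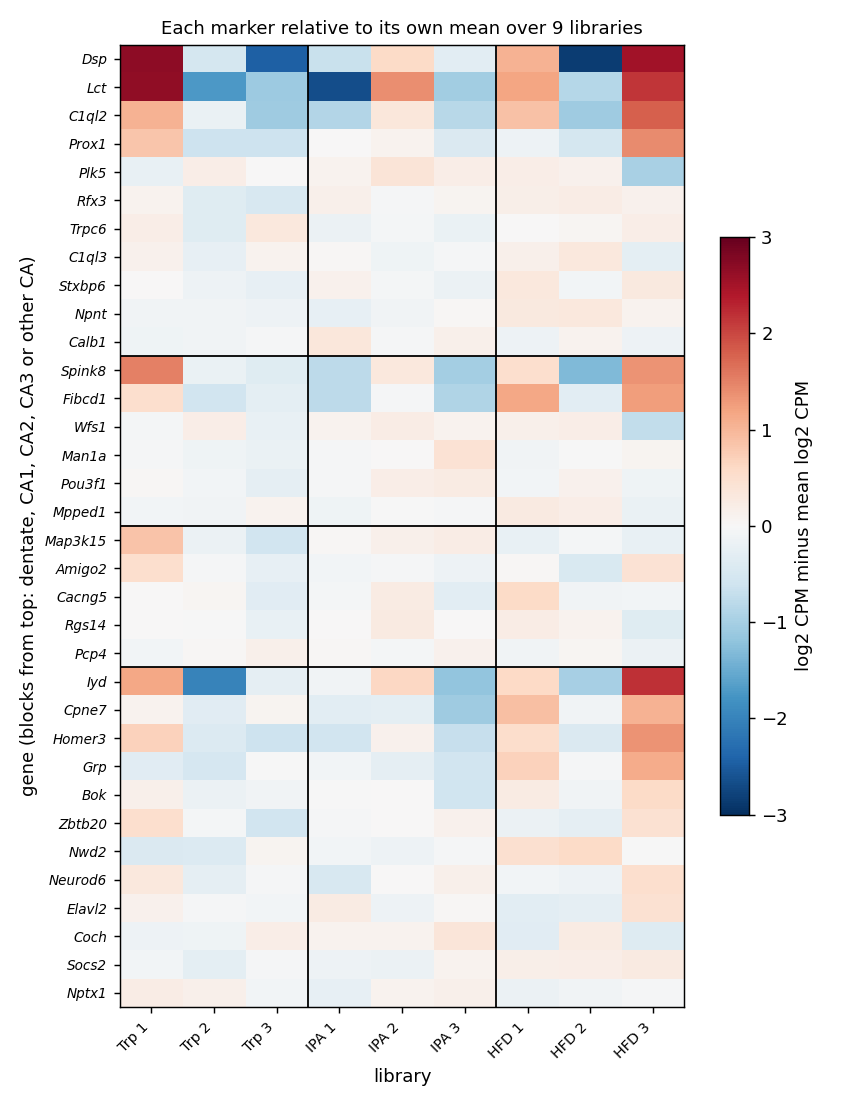
Each marker's log2 CPM minus its mean over the 9 libraries, with markers in rows by subset and libraries in columns in the order Trp, IPA and HFD. The strongest colours lie in Dsp, Lct, Iyd, C1ql2 and Spink8, which are high in Trp 1 and HFD 3, while rows such as Pcp4, Nptx1 and Calb1 are nearly flat.

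The remaining markers kept to narrower ranges. In the dentate set, C1ql3, a synaptic protein related to C1ql2, was at 32.8 to 50.1 CPM over the 9 libraries, Stxbp6, a syntaxin-binding protein, at 54.5 to 80.8 CPM, and Plk5, a polo-like kinase, at 5.42 to 13.9 CPM. In CA2, Amigo2, an adhesion molecule, was at 9.46 to 18.6 CPM and Cacng5, a subunit that regulates AMPA receptors, at 10.4 to 19.7 CPM. Among the other CA markers the transcription factors Neurod6 and Zbtb20 were at 57.7 to 112.9 and 23.4 to 49.4 CPM, Bok, a member of the BCL2 family, was at 39.6 to 88.7 CPM, and the RNA-binding protein Elavl2 was at 54.2 to 92.1 CPM. HFD 3 was the highest library for Neurod6, Bok and Elavl2 and the lowest for Plk5 and C1ql3.

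As a summary of each library, the mean log2 CPM (prior count 2) of the 11 dentate markers was 4.37, 3.35 and 3.23 in Trp, 3.40, 3.94 and 3.50 in IPA, and 4.08, 3.37 and 4.38 in HFD libraries. The mean over the 23 CA markers was 4.91, 4.45 and 4.51 in Trp, 4.53, 4.73 and 4.49 in IPA, and 4.89, 4.55 and 5.05 in HFD libraries. Both means were highest in the same 3 libraries, HFD 3, Trp 1 and HFD 1. This ranking depends on the measure. Summed CPM, which weighs the most abundant genes most, was highest in IPA 1 for the dentate markers (439.9 CPM, against 421.0 CPM in HFD 3). For the CA markers it was highest in IPA 3 (1803 CPM, against 1755 CPM in HFD 3). The dentate mean minus the CA mean was -0.54, -1.10 and -1.28 in Trp, -1.13, -0.79 and -0.99 in IPA, and -0.81, -1.18 and -0.67 in HFD libraries, and the groups overlapped. The dentate mean thus spanned 3.23 to 4.38 over the 9 libraries and the CA mean 4.45 to 5.05. When the means were taken over log2(FPKM + 0.5) instead, which weighs down the genes of lowest level, the difference was -1.04, -1.29 and -1.35 in Trp, -1.17, -1.19 and -1.18 in IPA, and -1.23, -1.23 and -1.18 in HFD libraries, a span of -1.35 to -1.04 in place of -1.28 to -0.54.

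**Figure D4:**
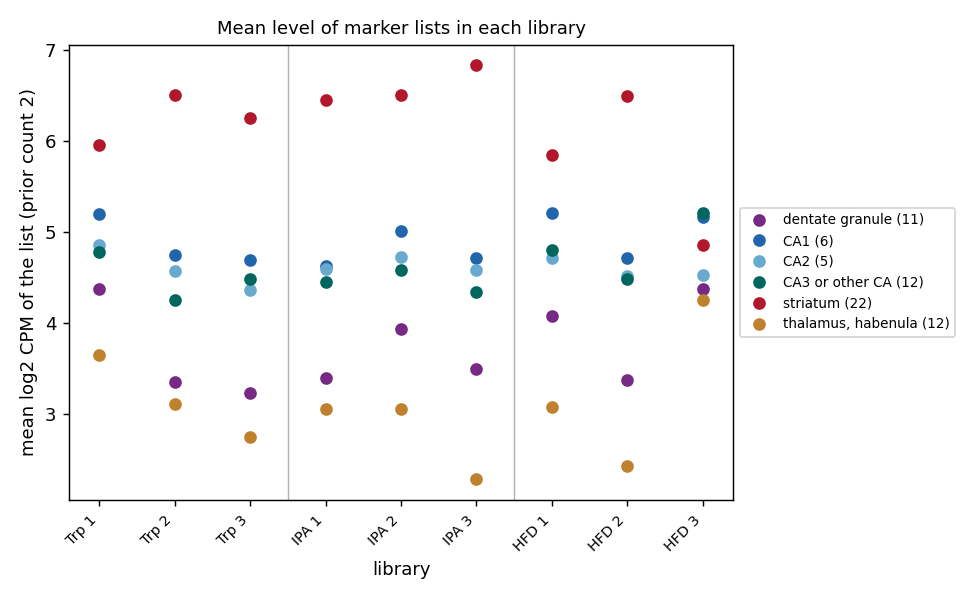
Mean log2 CPM (prior count 2) of the dentate, CA1, CA2 and CA3 or other CA markers and of the striatal and the thalamus and habenula markers, with 1 point for each list in each Trp, IPA and HFD library. The dentate mean is highest in HFD 3, Trp 1 and HFD 1, and the striatal mean is lowest in HFD 3, at 4.86.

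The first comparison asked how the markers in mice given tryptophan differed from those in mice on the high-fat diet alone. None of the 34 markers passed an adjusted p of 0.05 in edgeR's quasi-likelihood test, where 64 of 18690 genes passed (0.342%). At an unadjusted p under 0.05 there were 6 of the 34 markers and 2112 of all genes. The median log2 fold change was -0.12 over the dentate markers (1 higher and 10 lower) and -0.09 over the CA markers (8 higher and 15 lower), beside -0.002 over all genes. By field it was -0.10 in CA1, 0.06 in CA2 and -0.33 in the 12 other CA markers. Over the alternatives, which include leaving out each library, the dentate median was between -0.39 (without Trp 1) and -0.02 (without Trp 2), and the CA median between -0.26 (without Trp 1) and -0.01 (limma on FPKM, pseudocount 1). The dentate median was -0.25 without HFD 1, -0.38 without HFD 2 and -0.07 without HFD 3, and the CA median -0.15 without HFD 2 and -0.06 without Trp 3. The 3 Trp libraries lay below the 3 HFD libraries for 3 markers (Npnt, Rfx3 and Socs2), where 7.43% of all genes did so, and above them for 0, where 8.06% of all genes did. The count of 3 of 34 is near that background.

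Npnt, which encodes the extracellular matrix protein nephronectin, had 16.3, 16.3 and 15.8 CPM in the Trp libraries and 21.4, 21.9 and 19.1 CPM in the HFD libraries. The groups did not overlap, the log2 fold change was -0.37 ± 0.10 (SE), and the adjusted p was 0.213 in edgeR's test. Grp, which encodes gastrin-releasing peptide, had 5.09, 4.53 and 6.43 CPM in Trp and 10.4, 6.34 and 13.9 CPM in HFD libraries, with Trp 3 just above HFD 2. Its log2 fold change was -0.93 ± 0.26 with an adjusted p of 0.213 (edgeR), and -0.54 with the striatal mean as a covariate. Nwd2 had 18.0, 18.3 and 25.9 CPM in Trp and 34.2, 36.2 and 24.1 CPM in HFD libraries, with Trp 3 above HFD 3, a log2 fold change of -0.60 ± 0.17 and an adjusted p of 0.213 (edgeR). With HFD 3 left out Nwd2 had an adjusted p of 0.0150 and a log2 fold change of -0.76. DESeq2 gave 0.0401 for Nwd2 and 0.0227 for Grp. In the authors' deposited table Grp was the 1 marker with q under 0.05 for Trp against HFD, at 0.0414 and a log2 fold change of -0.93. Exons of Nwd2 overlap those of Gm9954 on the other strand, which had 155 to 337 counts, so reads from the shared stretch cannot be told apart.

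The other markers with small p in this comparison were as follows. Rfx3, a transcription factor of ciliary genes, had 32.9, 23.8 and 22.2 CPM in Trp and 34.9, 36.1 and 33.8 CPM in HFD libraries, with an adjusted p of 0.268 (edgeR). Socs2, a suppressor of cytokine signalling, had 12.6, 10.9 and 13.2 CPM in Trp and 15.2, 15.4 and 16.1 CPM in HFD libraries, with an adjusted p of 0.283 (edgeR). In both genes all 3 Trp libraries lay below all 3 HFD libraries. In the higher direction Nptx1 had a log2 fold change of 0.20 ± 0.11 (328.7, 313.0 and 269.4 CPM in Trp; 250.7, 264.4 and 277.8 CPM in HFD; adjusted p 0.551, edgeR). Pcp4 had 0.10 ± 0.10 (627.3, 679.1 and 745.2 CPM in Trp; 622.8, 699.3 and 590.6 CPM in HFD; adjusted p 0.757, edgeR), and 0.02 with the striatal covariate. Map3k15 had 2.55, 1.25 and 0.947 CPM in Trp and 1.22, 1.37 and 1.21 CPM in HFD libraries, so that only Trp 1 stood above the HFD range, and its log2 fold change of 0.32 became -0.21 without Trp 1 (adjusted p 0.771, edgeR). Its exons overlap those of Pdha1 on the other strand, which had 10541 to 14159 counts, so reads from the stretch that the 2 genes share cannot be told apart.

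The second comparison set the IPA mice against the same HFD libraries, so it shares its controls with the first. Again 0 of 34 markers passed at an adjusted p of 0.05 (edgeR), and 1 of 18690 genes did (0.00535%). At an unadjusted p under 0.05 there were 7 of the 34 markers and 1946 of all genes. The median log2 fold change was -0.23 over the dentate markers (2 higher and 9 lower) and -0.155 over the CA markers (9 higher and 14 lower), beside -0.006 over all genes. By field it was 0.002 in CA1, 0.10 in CA2 and -0.36 in the 12 other CA markers. With the mean of the striatal markers as a covariate, the dentate median was -0.003 and the CA median 0.03, and without HFD 3 they were -0.17 and -0.05. Without HFD 2 they were -0.31 and -0.29, and without HFD 1 the CA median was -0.10. The 3 IPA libraries lay below all HFD libraries for 6 of 34 markers (Npnt, Trpc6, Cpne7, Grp, Socs2 and Nwd2), against 8.01% of all genes, and above them for 1 marker, Map3k15, against 7.19%.

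Grp had 6.11, 5.38 and 4.33 CPM in IPA libraries and 10.4, 6.34 and 13.9 CPM in HFD libraries. No IPA library reached the lowest HFD library, the log2 fold change was -0.95 ± 0.26, and the adjusted p was 0.296 in edgeR's test, against 0.0238 in DESeq2. With the striatal mean as a covariate the log2 fold change was -0.33, and without HFD 3 it was -0.67. All 22 striatal markers had a higher mean in IPA than in HFD libraries, though none passed the test. The authors' deposited table gave Grp a q of 0.0276 and a log2 fold change of -0.95 for IPA against HFD, again as the 1 marker under 0.05. Npnt had 14.8, 16.3 and 17.9 CPM in IPA and 21.4, 21.9 and 19.1 CPM in HFD libraries, with a log2 fold change of -0.35 ± 0.10 (adjusted p 0.328, edgeR). Cpne7, a calcium-dependent membrane-binding protein of the copine family, had 22.8, 22.9 and 13.4 CPM in IPA and 52.5, 26.2 and 57.8 CPM in HFD libraries. Its log2 fold change was -1.21 ± 0.33 with an adjusted p of 0.330 (edgeR), and HFD 2 was close to the IPA libraries. With the striatal covariate it was -0.54. Nwd2 had 23.1, 22.1 and 23.7 CPM in IPA against 34.2, 36.2 and 24.1 CPM in HFD libraries, an adjusted p of 0.398 (edgeR). Socs2 had 12.0, 11.9 and 14.4 CPM in IPA and 15.2, 15.4 and 16.1 CPM in HFD libraries, an adjusted p of 0.449 (edgeR).

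On the higher side of this comparison, Calb1, the calcium buffer calbindin, had 243.0, 186.5 and 213.6 CPM in IPA libraries and 172.5, 205.0 and 172.9 CPM in HFD libraries. IPA 2 lay within the HFD range, the log2 fold change was 0.22 ± 0.11, and the adjusted p was 0.482 (edgeR). Coch had 41.7, 41.5 and 49.6 CPM in IPA and 30.8, 46.1 and 29.4 CPM in HFD libraries (0.32 ± 0.17; adjusted p 0.527, edgeR). Pou3f1, a POU-domain transcription factor, had 25.3, 29.3 and 30.4 CPM in IPA and 24.2, 28.3 and 23.6 CPM in HFD libraries (0.16 ± 0.11; adjusted p 0.651, edgeR). For the last 2 genes the groups overlapped as well. With the striatal covariate the 3 log2 fold changes were 0.13 for Calb1, 0.03 for Coch and 0.05 for Pou3f1. Leaving out IPA 1 gave 0.12 for Calb1, and leaving out HFD 2 gave 0.56 for Coch and 0.25 for Pou3f1. Coch was at 0.20 without HFD 3.

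The third comparison set tryptophan in the diet against gavaged IPA. Tryptophan is an essential amino acid and IPA is taken here by its label only, and the routes and amounts of the 2 treatments differed. None of the 34 markers and 0 of 18690 genes passed (0%), with 4 markers and 840 genes at an unadjusted p under 0.05 (edgeR; DESeq2 called 15 genes, 0 of them markers). The median log2 fold change was 0.05 over the dentate markers (6 higher and 5 lower) and 0.02 over the CA markers (12 higher and 11 lower), beside 0.008 over all genes. Over the alternatives the dentate median was between -0.24 (without Trp 1) and 0.16 (without Trp 2) and the CA median between -0.09 (without Trp 1) and 0.08 (limma on FPKM), and with the striatal mean as a covariate they were -0.18 and -0.05. The Trp libraries lay below the IPA libraries for 2 markers (Calb1 and Rgs14; 5.55% of all genes) and above them for 0 (5.61% of all genes). Calb1 had 175.1, 178.0 and 186.1 CPM in Trp and 243.0, 186.5 and 213.6 CPM in IPA libraries, a log2 fold change of -0.25 ± 0.11, with Trp 3 barely below IPA 2.

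The smallest p on the lower side after Calb1 were those of Man1a and Rfx3. Man1a, a mannosidase of the Golgi, had 33.1, 31.0 and 29.6 CPM in Trp and 33.0, 34.2 and 46.3 CPM in IPA libraries. Rfx3 had 32.9, 23.8 and 22.2 CPM in Trp and 34.5, 29.8 and 32.6 CPM in IPA libraries. On the higher side Cpne7 had 30.4, 22.3 and 29.9 CPM in Trp and 22.8, 22.9 and 13.4 CPM in IPA libraries, and Spink8 had 8.26, 2.56 and 2.26 CPM against 1.70, 3.62 and 1.44 CPM. Trpc6, a cation channel, had 6.04, 4.07 and 6.55 CPM in Trp and 4.66, 5.03 and 4.59 CPM in IPA libraries. Each of these genes overlapped between the groups, and each, like Calb1, had an adjusted p of 0.987 (edgeR).

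**Figure D5:**
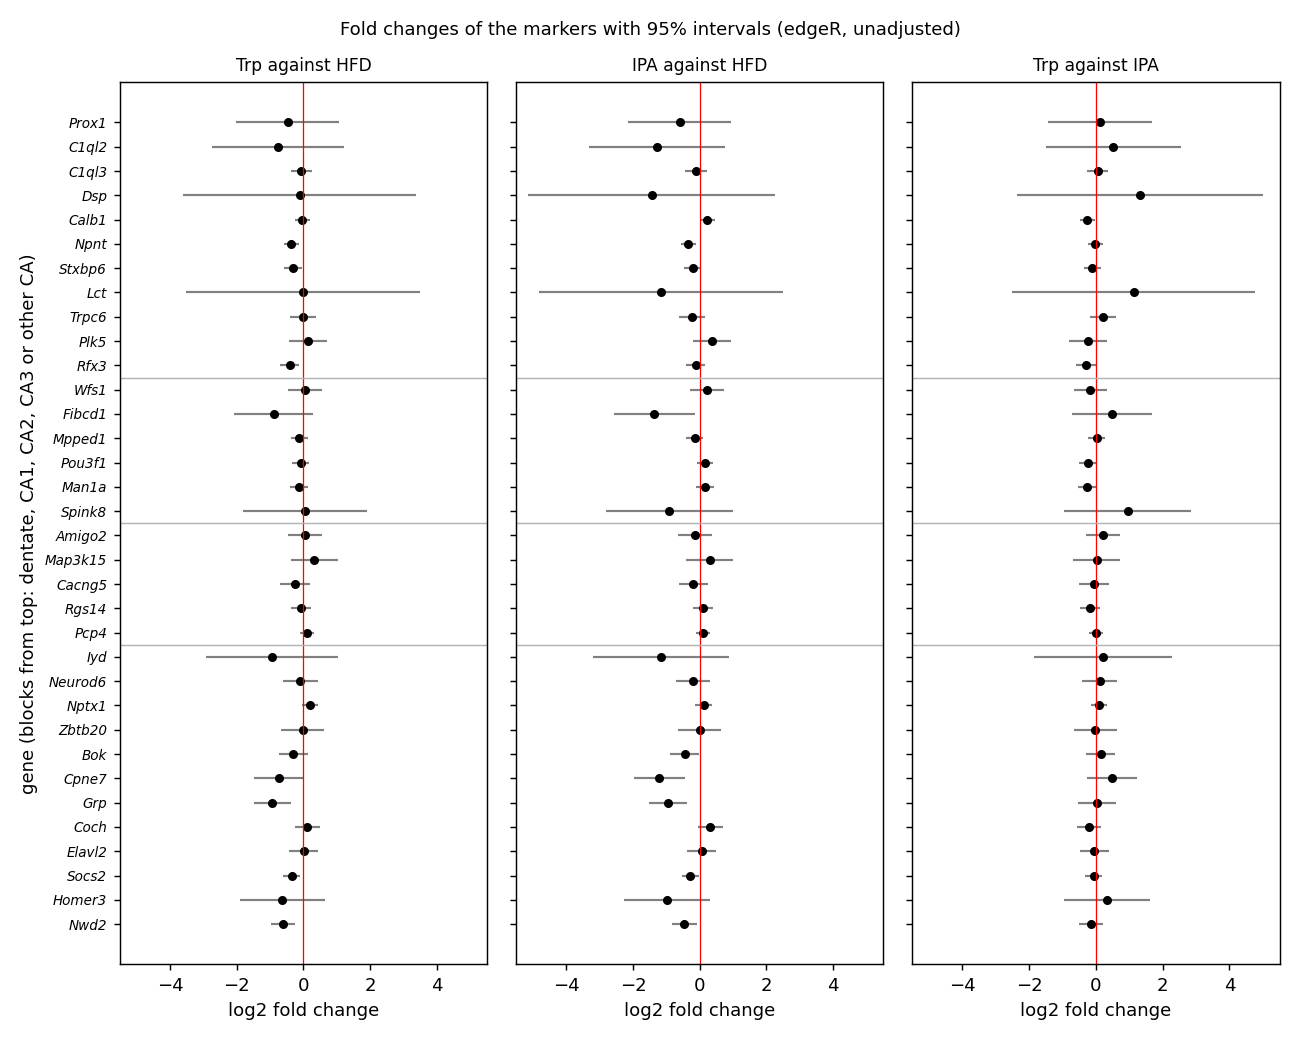
log2 fold change with its 95% interval, not adjusted for multiple tests, of the 34 markers in the 3 comparisons (edgeR), in rows by subset. No marker passed an adjusted p of 0.05, and the widest intervals are those of Dsp, Lct, Iyd, C1ql2 and Spink8.

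The width of those intervals is the limit for the variable markers. Dsp had a log2 fold change of -0.12 in Trp against HFD with a 95% interval of -3.61 to 3.38, and Lct -0.02 with an interval of -3.51 to 3.47. Prox1 had -0.47 (-2.01 to 1.07) for Trp against HFD and -0.59 (-2.14 to 0.95) for IPA against HFD. C1ql2 had -0.76 (-2.75 to 1.22) for Trp and -1.29 (-3.32 to 0.74) for IPA, both against HFD. For Dsp and Lct these spans hold changes of several fold in either direction. For Prox1 and C1ql2 they reach further on the lower side than on the higher side, and include 0. For the flat markers the interval was narrow: Pcp4 had -0.11 to 0.31 for Trp against HFD and -0.10 to 0.31 for IPA against HFD.

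Among genes listed as markers of the same neurons that were not members, 12 other dentate genes and 18 other CA genes were tested and none passed in any comparison (edgeR). How far other regions contributed to the levels of these genes was not tested. In the CA list Ptpn5 and Meis2 were lowest in HFD 3 and highest in IPA 3, as was the striatal sum (1347 and 5242 CPM). Others of that list, such as Gpr161, were highest in HFD 3. For Trp against HFD, 5 dentate genes were higher and 7 lower (median log2 fold change -0.09), and 7 CA genes were higher and 11 lower (-0.11). For IPA against HFD, 6 were higher and 6 lower (0.006), and 7 higher and 11 lower (-0.07). For Trp against IPA, 4 were higher and 8 lower (-0.03), and 9 higher and 9 lower (-0.001). Neurod1, a transcription factor of granule cell differentiation, had 5.01, 3.33 and 3.77 CPM in Trp and 8.63, 6.62 and 9.999 CPM in HFD libraries, a log2 fold change of -1.06 with an adjusted p of 0.094 (edgeR), and no Trp library reached the lowest HFD library. The IPA libraries, at 6.46, 6.26 and 3.85 CPM, also lay below it, with a log2 fold change of -0.61 against HFD (adjusted p 0.411, edgeR). Nectin3, a cell adhesion molecule, had 16.5, 14.1 and 14.0 CPM in Trp, 13.2, 15.7 and 15.6 CPM in IPA and 22.9, 18.6 and 24.8 CPM in HFD libraries. Its log2 fold change was -0.57 in Trp (adjusted p 0.104, edgeR) and -0.58 in IPA (adjusted p 0.194, edgeR), both against HFD. Cpne4, another copine, had 56.7, 51.3 and 53.4 CPM in Trp and 83.7, 59.1 and 79.6 CPM in HFD libraries, with a log2 fold change of -0.46 (adjusted p 0.233, edgeR). In IPA libraries Cpne4 had 62.7, 55.4 and 46.1 CPM, with a log2 fold change of -0.44 against HFD (adjusted p 0.341, edgeR). Neurod2 was lower with a log2 fold change of -0.30 in Trp and -0.37 in IPA, adjusted p 0.557 and 0.477 (edgeR). On the higher side the smallest p for Trp against HFD were those of Dock10 (log2 fold change 0.16), Glis3 (0.25), Vcan (0.25) and Ptpn5 (0.36), with adjusted p of 0.557 or more (edgeR). For IPA against HFD they were those of Dgkh (0.19), Dock10 (0.15), Ptpn5 (0.43) and Meis2 (0.53), with adjusted p of 0.597 or more (edgeR). For Trp against IPA, Sema5a (0.25), Neurod2 (0.08), Grik4 (0.27) and Vcan (0.14) were on the higher side and Dgkh (-0.34), Neurod1 (-0.45) and Kcnq5 (-0.27) on the lower side, each with an adjusted p of 0.987 (edgeR).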

How the data were processed

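Libraries were made from oligo(dT)-selected RNA with random-hexamer priming and without a described strand marking, per the labels' protocols. StringTie 2.1.3b and mm10 are named in the submitters' processing notes, and neither the aligner nor the counting tool is. Per the file headers, 1 deposited table held raw counts per gene and library and FPKM, which the authors scaled to gene length and library size. It also held the authors' deposited log2 fold change, p and q values for both comparisons with HFD. The coordinates in the table do not match the starts of GENCODE release 21, so none are printed, and the column codes were mapped to samples through the labels, with 0 columns left over. The labels name 3 mice a group, and p-values measure the spread between these samples.

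Counts were tested in R 4.3.3 with edgeR 4.0.16: filterByExpr with a minimum count of 10, TMM scaling, robust quasi-likelihood fit to all 9 libraries with 1 mean per group and no covariate, two-sided, Benjamini-Hochberg over 18690 genes, adjusted p under 0.05. CPM used TMM-adjusted library sizes, log2 CPM a prior count of 2, and errors of fold changes are SE. The smallest p that an exact permutation test can give with 3 libraries in each group is 0.1. Alternatives were DESeq2 1.42.0, limma 3.58.1 on FPKM, other scalings, no filter, a replicate block, a striatal covariate and leaving out each library. The fitting scripts were tested on simulated data, and figures were drawn with matplotlib 3.10.9. Overlaps of exons came from GENCODE, and promoters from RefSeq.

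The members and lists were chosen with earlier results of these data known. Values per library are given for members with an adjusted p under 0.05, the 3 higher and 3 lower with the smallest p per comparison, the 3 highest and 3 lowest mean FPKM and the 3 largest ratios between libraries, and other members by range. Of other genes, the rule names Drd1, Ttr, Slc6a3, Tcf7l2 and Tbr1 and the 2 other dentate and 2 other CA genes with the smallest p per direction, of which 1 is not reported here. Genes outside this rule are said to be chosen after their values were seen. Names were taken from the table, and 12 members share exons with another gene. Same-numbered libraries did not deviate together.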

Additional observations from a re-analysis of the deposited data

How the results depend on the processing

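For Trp against HFD 64 genes passed, and 288 with DESeq2, 97 with no filter, 8 with only the 6 libraries compared, 223 with the striatal mean as a covariate, 119 at an adjusted p under 0.1 and 12 at 0.01. Leaving out 1 library gave 13 (without Trp 2) to 323 (without HFD 3), and every omission but that of Trp 3 moved the count by over 1.5 times. Of the members 0 passed, against 2 with DESeq2 (Grp and Nwd2), 1 with the covariate (Nwd2) and 0 to 1 when a library was left out (Nwd2, without HFD 3). For IPA against HFD 1 gene passed, and 170 with DESeq2, 6 with no filter, 2 with only the 6 libraries, 10 with the covariate, 2 at an adjusted p under 0.1, 0 at 0.01, and 0 to 52 (without HFD 3) when a library was left out. The members were 0, and 1 with DESeq2 (Grp). For Trp against IPA 0 genes passed, and 15 with DESeq2, 3 with no filter, 2 with limma on FPKM at each of the pseudocounts 0.5, 0.1 and 1, and 0 to 1 when a library was left out. The cause of these moves was not tested.

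The replicate block, which the labels do not call for, gave 23 genes for Trp against HFD and 0 for IPA against HFD. Correlations of deviations between same-numbered libraries were -0.20 to 0.05, and -0.14 to 0.26 between others. Of the 18 fold changes of members with the smallest p, only that of Map3k15 for Trp against HFD turned, ranging over the omissions between -0.21 (without Trp 1) and 0.59. RLE and upper quartile scaling kept the sign of the dentate and CA medians in all 3 comparisons. These medians, an alternative added after seeing the data, moved in 27 values over the alternatives and stayed close in 87. Dsp, Lct and Iyd are limited by low counts in some libraries, down to 9, 9 and 5. These low counts did not follow depth. Dsp had 9 counts in HFD 2 and 319 in HFD 3, where the total counts were 50385774 and 43111819.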

Other observations

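The genes of the other CA list, named here after their values were seen, did not share 1 pattern. Some were highest in libraries that were also high for the variable markers, and others were lowest in HFD 3. Lefty1, a secreted antagonist of Nodal signalling, had 2.71, 0.575 and 0.383 CPM in Trp, 0.3503, 1.33 and 0.307 CPM in IPA, and 2.31, 0.303 and 3.11 CPM in HFD libraries. Gpr161, a G-protein-coupled receptor of primary cilia, had 18.9, 10.4 and 9.05 CPM in Trp, 9.51, 11.8 and 7.94 CPM in IPA, and 16.5, 8.82 and 27.9 CPM in HFD libraries. In both, HFD 3, Trp 1 and HFD 1 were the 3 highest libraries. The other way, HFD 3 was the lowest library for genes such as Ptpn5, Necab2, Meis2, Lmo4 and Col6a1. Ptpn5 was at 146.0 CPM there and Meis2 at 80.9 CPM, with highest libraries at 363.4 and 251.3 CPM. Fgf2, a growth factor, was at 0.0709 CPM in IPA 3, while the remaining 8 libraries had 6.70 to 11.7 CPM. In deposited FPKM the gap was much smaller, at 0.168 FPKM in IPA 3 and 0.989 to 1.77 FPKM elsewhere. Counts and FPKM thus differ for this gene in IPA 3, and the cause was not tested.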
